A study of Mus musculus with 9 samples.

Results

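Transcripts of 40 genes that fold, modify, move or degrade proteins in the endoplasmic reticulum (ER) were followed in D2A1-d cells, a mouse breast carcinoma line, with and without knockdown of Med4, a subunit of Mediator, the coactivator through which transcription factors reach RNA polymerase II. The list of genes was chosen with earlier results of these data known. Its genes were taken by symbol, with no filter on their values, from the 55335 gene identifiers counted in every library. All 40 were found. They comprise ER chaperones and their cofactors, lectin chaperones, disulfide isomerases and oxidases, prolyl isomerases, components of ER-associated degradation, genes of entry into and exit from the ER, and the stress sensors and transcription factors of the unfolded protein response. Cells had been transduced with a non-targeting control hairpin (NTC, labelled wild type) or with 1 of 2 short hairpin RNAs against Med4, shMed4 #1 or shMed4 #4 (labelled Med4 knockdown). All were labelled untreated, so no agent that stresses the ER was given. Each group had 3 libraries numbered as biological replicates, and the labels do not say whether these were transduced separately, whether the cells are pools or clones, or how the time after transduction was set. P-values therefore measure the spread between these libraries, which may be technical.

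Proteins of the secretory pathway enter the ER through the Sec61 translocon, are folded there by chaperones such as BiP (Hspa5) and by disulfide isomerases, and leave in COPII vesicles. Proteins that fail to fold are recognised by lectins and returned to the cytosol for degradation, a process called ERAD. When unfolded protein accumulates, the sensors IRE1 (Ern1), PERK (Eif2ak3) and ATF6 start the unfolded protein response, in which cleaved ATF6 and the spliced form of XBP1 raise the transcription of chaperone and ERAD genes. Many of those genes carry an ER stress response element in the promoter. Counts per gene do not separate spliced from unspliced Xbp1, nor do they report the activity of any sensor.

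The libraries held 7572114 to 8582235 reads assigned to genes. Med4 itself held 29.4, 27.9 and 25.04 CPM (read counts scaled to library size with TMM factors) in NTC, 4.97, 4.24 and 4.40 under shMed4 #1, and 8.05, 7.45 and 6.13 under shMed4 #4, with no overlap between groups. Mitochondrially encoded genes took 4.43 to 4.58% of gene reads in NTC, 5.51 to 6.12% under shMed4 #1 and 5.81 to 6.04% under shMed4 #4, and the part of this in the results was not tested. Of 8 leukocyte markers 2 were abundant enough to test, with a summed level of 15.2 to 16.5 CPM in NTC libraries, 12.6 to 14.2 under shMed4 #1 and 13.9 to 15.3 under shMed4 #4, and Cd3e had no read in any library. Plasma cells are rich in ER proteins. Their 4 markers summed to 138 to 140 CPM in NTC libraries, 204 to 223 under shMed4 #1 and 200 to 205 under shMed4 #4, of which only Sdc1, also a surface proteoglycan of epithelial cells, was abundant enough to test. Among 9 mammary, epithelial and mesenchymal markers, whose sum was 1944 to 1989 CPM in NTC libraries, 1504 to 1682 under shMed4 #1 and 1250 to 1322 under shMed4 #4, Epcam had 1 read and Cdh1 and Cldn4 had 0 reads over the 9 libraries, so these markers of an epithelial origin were absent. The sum was mostly the mesenchymal filament gene Vim, while the epithelial keratin Krt18 went from 19.9 to 21.2 CPM in NTC to 74.8 to 90.9 and 124 to 143 CPM. The 6 fibroblast markers, 3 of them tested, summed to 260 to 292, 226 to 240 and 213 to 229 CPM in the order NTC, #1 and #4. Within them Pdgfra went from 123 to 132 CPM in NTC to 73.4 to 81.8 and 52.5 to 64.2, and Col1a1 the other way, from 14.4 to 16.6 to 41.9 to 49.6 and 49.4 to 54.1. The 5 endothelial markers summed to 1.42 to 2.11, 2.73 to 4.40 and 2.07 to 3.23 CPM, and the single one tested, Cdh5, rose (averaged log2 1.48). The part of these shifts in the results was not tested. In bulk RNA, fewer cells of a type and less RNA per cell cannot be told apart.

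ER folding genes rose on the whole in Med4-depleted cells, most of all the isomerase Pdia4 and the cofactors Sdf2l1 and Creld2. The ERAD lectin Os9, the ERAD adaptor Herpud1 and the sensor Ern1 fell with both hairpins. The translocon-associated Ssr1 fell under shMed4 #4 only. With both hairpins averaged against NTC, 26 of the 39 members tested were higher and 7 lower at an edgeR adjusted p under 0.05, against 26.8% higher and 26.5% lower among all 14335 genes tested. The median log2 change was 0.19 over the members and -0.01 over all genes tested. All 39 had a mean of at least 30 CPM, and among the 6854 genes at or above that level 35.1% were higher and 26.7% lower, with a median of 0.03. The member that could not be tested, Derl3, a homologue of Derl1 and Derl2, had only 45 reads over the 9 libraries, at 0.388 to 0.622 CPM in NTC libraries, 0.694 to 1.33 under shMed4 #1 and 0.124 to 0.610 under shMed4 #4.

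The same members were compared for each hairpin, both against the same 3 NTC libraries. With shMed4 #1, 21 were higher and 6 lower (21.8% and 19.8% of all genes tested, 27.8% and 22.3% of those at 30 CPM or more), with a median log2 fold change of 0.16. The lower count was 3 without NTC replicate 1 and 3 without shMed4 #1 replicate 3. With shMed4 #4, 26 were higher and 8 lower (27.8% and 27.3% of all genes tested, 37.1% and 26.4% of those at 30 CPM or more), with a median of 0.24. In 24 members all 6 knockdown libraries lay above all 3 NTC libraries, and in 4 they lay below, against 19.5% and 18.3% of all genes tested. The summed level of the 40 members was 22130 ± 556 CPM in NTC libraries, 25250 ± 595 under shMed4 #1 and 28070 ± 299 under shMed4 #4 (SD, n = 3 each), and the sums of the groups did not overlap. As a share of gene reads this was 2.26 ± 0.05%, 2.53 ± 0.05% and 2.73 ± 0.02%. The sum is weighted to abundant members, with NTC means of 4513 CPM for Calr, 2945 for Hsp90b1, 2390 for Pdia3 and 2013 for Hspa5. ERAD genes and sensors weigh little in it, the highest ERAD gene being Herpud1 at 262 CPM.

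**Figure D1:**
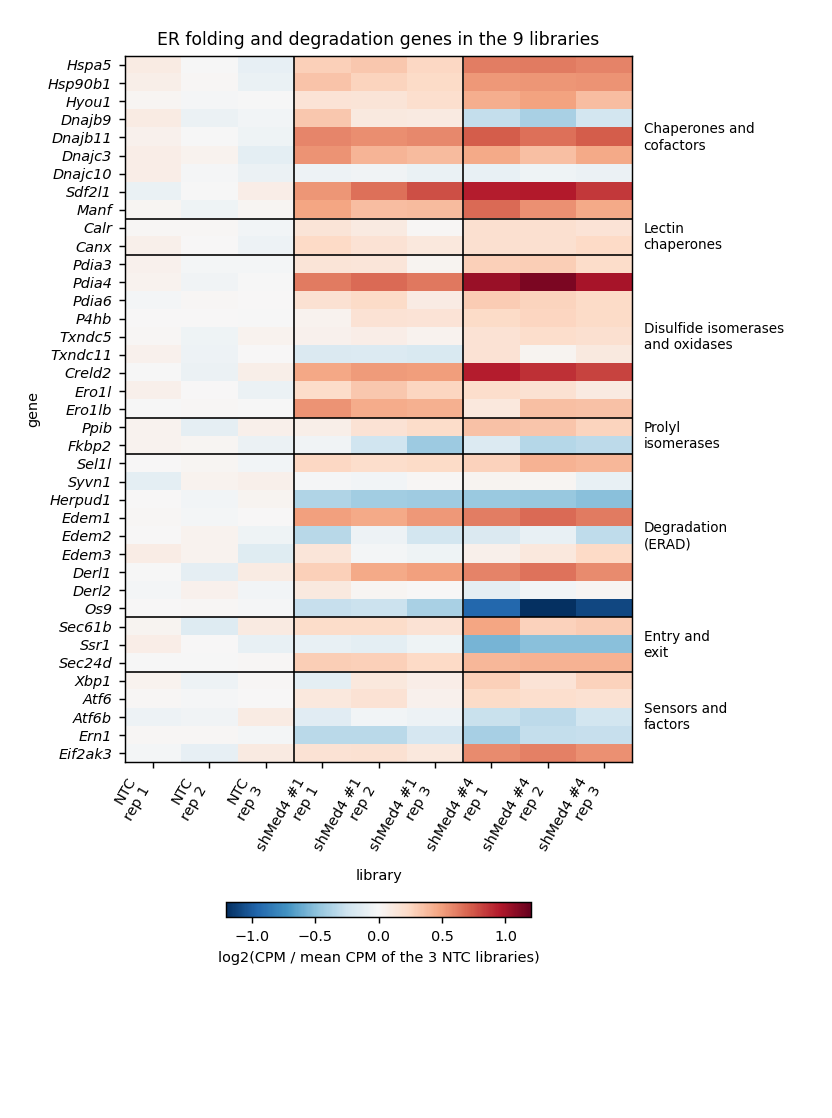
Colour gives log2 of each library's CPM over the mean CPM of the 3 NTC libraries for the 39 members tested (rows, ordered by role) in the 9 libraries (columns, by group and replicate). Rows of chaperones and disulfide isomerases are mostly red in the 6 knockdown libraries, deepest for Pdia4, Sdf2l1 and Creld2, while Os9 and Herpud1 are blue. Ssr1 is clearly blue only under shMed4 #4.

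The most abundant members in NTC cells were chaperones and isomerases. Per kilobase of exon sequence, the calcium-binding lectin chaperone Calr had the highest level, at 1567 ± 31.6 CPM per kb (SD, n = 3). The isomerase Pdia3 followed at 762 ± 22.4 CPM per kb, then the Hsp90 family member Hsp90b1 at 730 ± 37.7 CPM per kb. Hspa5 stood at 476 ± 33.1 CPM per kb. The sensors were far lower, with Ern1 at 10.9 ± 0.16 CPM per kb and Eif2ak3 at 5.64 ± 0.41 CPM per kb.

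Promoters were searched because the unfolded protein response acts through known elements. RefSeq promoter sequences of GRCm38.p6 (250 bases before to 50 after a gene start) were at hand for 36 of the 40 members. The ER stress response element, CCAAT and CCACG with 9 free bases between them, was found on either strand in 10 of these 36 genes (27.8%) and in 37 of all 27025 genes with a promoter (0.137%). The members were picked as ER folding and stress response genes, many of which are known to carry this element. Their higher share therefore cannot be read as a result of these data. A match describes the letters and is not a site shown to be bound. Of the 10 members with a match, 9 were tested, 8 of which rose for the average (median log2 fold change 0.38), the exception being Syvn1. Of the 26 members without one, 14 rose and 7 fell (median 0.13). Among all genes tested 26.8% rose and 26.5% fell, and among those at 30 CPM or more 35.1% and 26.7%. The calls of other genes with the element were not examined, and the part of the element in this split was not tested. The shorter element ERSE-II, ATTGG and CCACG with 1 free base between them, was found in 2 of the 36 genes (0.0444% of all genes), Dnajb11 and Herpud1. The core of the XBP1-bound element, TGACGTGG, was found in 3 (0.714% of all genes), Txndc5, Txndc11 and Sec24d. The CRE core TGACGTCA was found in 0 of 36 members (2.03% of all genes), and the ATF4-bound core TGATGCAA in 1 (1.03% of all genes), Herpud1. These elements share letters: CCACG ends both ER stress response elements, lies within the reverse of TGACGTGG, and alone was present in 30 of 36 members and 35.5% of all genes.

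The matches are shown on the gene's own strand, 5′ to 3′, with the outer 5-base blocks in capitals. Where the element runs backwards these read CGTGG and then ATTGG. The first 5 lines belong to Hspa5, Hsp90b1, Dnajc3 and Creld2, which rose.
Hspa5, chr2:34772020-34772048, plus strand: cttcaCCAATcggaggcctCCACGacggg
Hsp90b1, chr10:86705618-86705676, minus strand: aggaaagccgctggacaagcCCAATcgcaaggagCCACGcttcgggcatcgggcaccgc
Hsp90b1, chr10:86705513-86705571, minus strand: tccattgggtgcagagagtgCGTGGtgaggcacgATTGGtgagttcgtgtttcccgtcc
Dnajc3, chr14:118937807-118937865, plus strand: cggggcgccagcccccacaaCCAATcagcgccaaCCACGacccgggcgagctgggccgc
Creld2, chr15:88819500-88819558, plus strand: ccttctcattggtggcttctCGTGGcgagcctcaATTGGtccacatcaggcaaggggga
Pdia6, chr12:17266471-17266529, plus strand: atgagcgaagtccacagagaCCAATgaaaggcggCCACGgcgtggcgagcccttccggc
Syvn1, chr19:6046512-6046570, plus strand: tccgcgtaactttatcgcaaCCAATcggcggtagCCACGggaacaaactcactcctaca

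Pdia6 and Syvn1 are set together because both hold the full element close to the start, at 98 to 80 and 44 to 26 bases before it, while Pdia6 rose by 0.22 and Syvn1 had a log2 change of -0.01 (SE 0.05, edgeR adjusted p = 0.886). Pdia4, the member with the largest rise, has no full match. With the last letter of CCACG left free, a form chosen after the first search, 14 of 36 members and 0.429% of all genes matched. The 4 members added were Pdia4 and Pdia3, which rose, Derl2, at 0.00, and Herpud1, which fell. Of the 13 tested members with this form, 10 rose and 1 fell (median 0.22), and of the 22 without it, 12 rose and 6 fell (median 0.13). These counts stand against the same shares of all genes tested, 26.8% and 26.5%. Herpud1 also holds ERSE-II. The free-letter match of Pdia4, where the free letter opens the first block, and the ERSE-II match of Herpud1 are shown because these genes had the largest rise and a fall.
Pdia4, chr6:47813582-47813640, minus strand: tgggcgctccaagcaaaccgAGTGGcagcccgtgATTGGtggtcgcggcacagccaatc
Herpud1, chr8:94386357-94386407, plus strand: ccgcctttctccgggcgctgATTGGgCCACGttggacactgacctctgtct

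Of the 9 chaperones and cofactors of the Hsp70 and Hsp90 class, 7 rose and 0 fell for the average (median log2 fold change 0.44). Among all genes tested 26.8% rose and 26.5% fell, and among those at 30 CPM or more 35.1% and 26.7%. Hspa5 (ENSMUSG00000026864.13, chromosome 2, 34771970 to 34777547 in GRCm38) encodes BiP, the Hsp70 of the ER and its main chaperone. Its NTC libraries held 2156, 2007 and 1876 CPM, those of shMed4 #1 2457, 2514 and 2392, and those of shMed4 #4 3078, 3099 and 3037. The 3 groups did not overlap. The log2 change was 0.29 under shMed4 #1 (SE 0.05, edgeR adjusted p = 1.4e-05) and 0.61 under shMed4 #4 (SE 0.05, edgeR adjusted p = 4.65e-13). The ER Hsp90 Hsp90b1 (chromosome 10, 86690209 to 86705509) rose from 2945 ± 152 CPM in NTC to 3582 ± 142 and 4249 ± 32, also without overlap, and 10.3% of its exon sequence overlaps an opposite-strand gene. That gene had 116228 reads over all libraries, against 263498 for Hsp90b1. Without a stated strand setting their reads may be mixed.

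Sdf2l1 (chromosome 16, 17130138 to 17132383) encodes a small partner of BiP and its J-domain cofactors. It held 93.4, 98.2 and 104 CPM in NTC libraries, 143, 156 and 169 under shMed4 #1, and 190, 191 and 178 under shMed4 #4. Every library of shMed4 #4 was above every library of shMed4 #1, and these were above all NTC libraries. The averaged log2 change was 0.79 (SE 0.05, edgeR adjusted p = 2.87e-15). Dnajb11 (chromosome 16, 22857845 to 22879634), a J-domain cofactor that hands clients to BiP, held 280, 269 and 261 CPM in NTC libraries, 404, 398 and 403 under shMed4 #1, and 448, 427 and 446 under shMed4 #4. Its averaged log2 change was 0.64 (SE 0.04, edgeR adjusted p = 2.38e-15). Manf (chromosome 9, 106838312 to 106891979), a BiP-binding factor that is secreted under stress, held 342, 322 and 341 CPM in NTC libraries, 465, 433 and 436 under shMed4 #1, and 536, 491 and 458 under shMed4 #4. The NTC libraries lay below the rest, while the hairpins overlapped with each other. Of its exon sequence 4.71% overlaps a gene on the opposite strand, which had 7105 reads over all libraries against 31187 for Manf.

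The remaining cofactors did not move alike. Dnajc3, a J-domain protein also known as P58IPK, rose by 0.44 for the average and Hyou1, the nucleotide exchange factor of BiP, by 0.30. Dnajc10, a J-domain reductase that opens disulfides of ERAD clients, had a log2 change of -0.07 (SE 0.04, edgeR adjusted p = 0.179), with overlapping groups. Dnajb9 (chromosome 12, 44205559 to 44210326), the J-domain protein ERdj4, which binds IRE1, moved in opposite directions with the hairpins. It held 67.9, 60.6 and 61.9 CPM in NTC libraries, 79.4, 69.0 and 68.4 under shMed4 #1, and 52.2, 48.4 and 54.4 under shMed4 #4. The log2 change was 0.19 under shMed4 #1 (SE 0.07, edgeR adjusted p = 0.0293) and -0.30 under shMed4 #4 (SE 0.07, edgeR adjusted p = 0.000735). The rise under shMed4 #1 did not pass with DESeq2 (adjusted p = 0.079) or with upper-quartile scaling (edgeR adjusted p = 0.0698).

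Both lectin chaperones, which hold glycoproteins during folding, rose slightly. Canx (chromosome 11, 50293961 to 50325673), the membrane-bound calnexin, held 1620, 1560 and 1486 CPM in NTC libraries, 1830, 1755 and 1696 under shMed4 #1, and 1773, 1781 and 1835 under shMed4 #4, an averaged log2 change of 0.19 (SE 0.04, edgeR adjusted p = 0.000199). Calr (chromosome 8, 84841850 to 84846934), the soluble calreticulin, held 4563, 4567 and 4408 CPM in NTC libraries, 5014, 4877 and 4570 under shMed4 #1, and 5143, 5141 and 5047 under shMed4 #4. For the average it rose by 0.14 (SE 0.04, edgeR adjusted p = 0.00597), but not under shMed4 #1 alone (0.10, edgeR adjusted p = 0.115). Calr lies on a stretch of chromosome 8 where the 50 nearest tested genes had median log2 fold changes of -0.37 and -0.35 with the hairpins, in the order #1 and #4.

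Disulfide isomerases and oxidases gave 8 rises and 0 falls among 9 for the average (median 0.22), against 26.8% and 26.5% of all genes tested. Pdia4 (ENSMUSG00000025823.9, chromosome 6, 47796141 to 47813430), an isomerase that works with BiP, held 701, 663 and 681 CPM in NTC libraries, 1047, 1093 and 1059 under shMed4 #1, and 1399, 1495 and 1351 under shMed4 #4. The groups were far apart relative to the spread within each, with means of 682 ± 19, 1066 ± 24 and 1415 ± 73 CPM (SD, n = 3 each). The fold was 1.56 under shMed4 #1 (log2 0.65, SE 0.05, edgeR adjusted p = 1.32e-13) and 2.08 under shMed4 #4 (log2 1.05, SE 0.05, edgeR adjusted p = 3.08e-20). Creld2 (chromosome 15, 88819646 to 88826683), a cysteine-rich ER stress protein, held 184, 175 and 193 CPM in NTC libraries, 253, 261 and 260 under shMed4 #1, and 353, 338 and 322 under shMed4 #4. Its averaged log2 change was 0.68 (SE 0.05, edgeR adjusted p = 2.51e-15), again without overlap between the 3 groups.

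The abundant general isomerases moved much less. Pdia6 held 1397, 1434 and 1426 CPM in NTC libraries, 1612, 1665 and 1520 under shMed4 #1, and 1756, 1711 and 1661 under shMed4 #4, an averaged log2 change of 0.22. P4hb, the classical protein disulfide isomerase, rose by 0.18 (SE 0.04, edgeR adjusted p = 0.00033). Pdia3, the partner of the lectin chaperones, rose by 0.19 (SE 0.04, edgeR adjusted p = 0.000285), but not under shMed4 #1 alone (0.11, edgeR adjusted p = 0.0598). Txndc5 rose by 0.12, a call that did not hold with upper-quartile scaling (0.09, edgeR adjusted p = 0.0767). Under shMed4 #1 alone it was not called (0.06, edgeR adjusted p = 0.35). Of its exon sequence 6.92% overlaps an opposite-strand gene. Both Ero1 oxidases, which pass electrons from the isomerases to oxygen, rose. Ero1lb (chromosome 13, 12565874 to 12611396) held 32.1, 32.4 and 32.0 CPM in NTC libraries, 46.8, 43.9 and 43.4 under shMed4 #1, and 35.1, 41.3 and 41.1 under shMed4 #4, so that here the libraries of shMed4 #1 lay highest. Ero1l rose by 0.22 for the average. Txndc11 had an averaged log2 change of -0.03 (edgeR adjusted p = 0.648), with -0.18 for shMed4 #1 (edgeR adjusted p = 0.0251) and 0.11 for shMed4 #4 (edgeR adjusted p = 0.13).

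**Figure D2:**
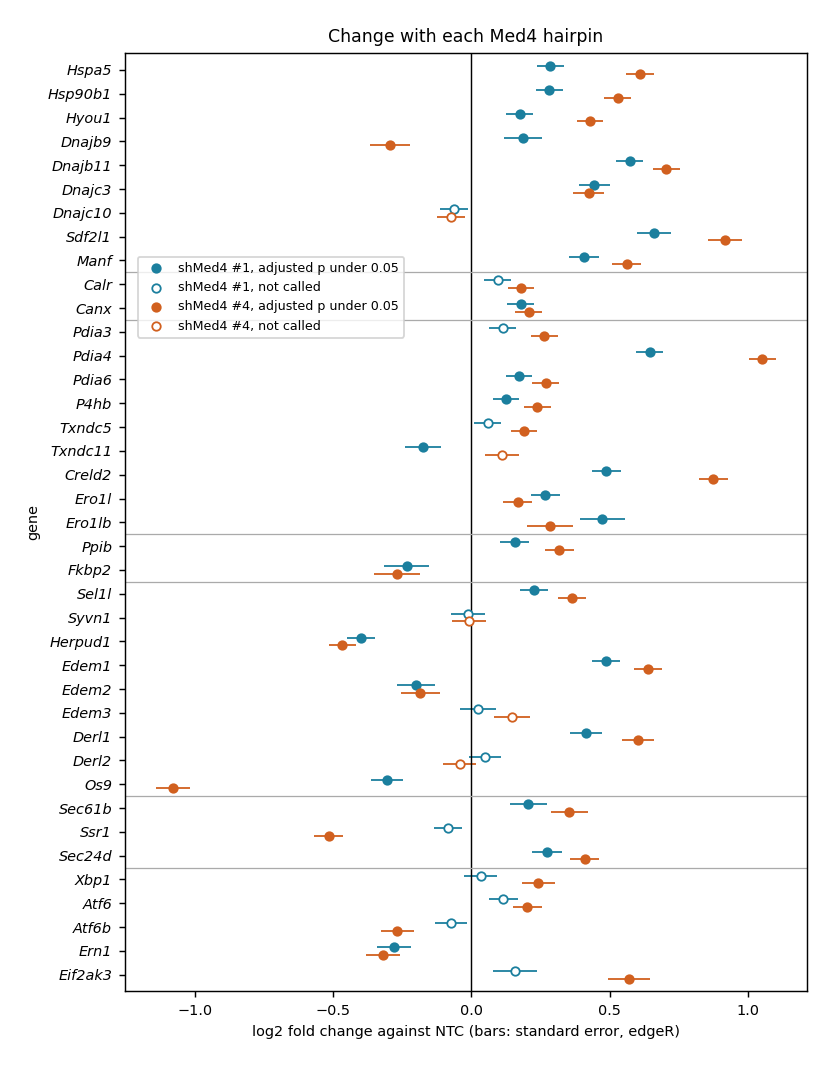
Points give the log2 fold change against NTC (x axis) of each of the 39 members tested (y axis, ordered by role) for shMed4 #1 and shMed4 #4, with the standard error as a bar and open points where the edgeR adjusted p was not under 0.05. Pdia4 reaches 1.05 and Os9 -1.08 under shMed4 #4, and Dnajb9 is the member with filled points on both sides of 0.

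The 2 prolyl isomerases, which speed turns at proline, went opposite ways. Ppib (chromosome 9, 66060222 to 66066623), cyclophilin B, held 382, 344 and 386 CPM in NTC libraries, 390, 419 and 431 under shMed4 #1, and 475, 468 and 445 under shMed4 #4, and rose by 0.24 (SE 0.05, edgeR adjusted p = 3.75e-05). A gene on the other strand shares 24.96% of its exon sequence, and without a stated strand setting their reads may be mixed. That gene had 16438 reads over all libraries, against 30487 for Ppib. Fkbp2 (chromosome 19, 6977741 to 6980501) held 51.5, 50.9 and 47.6 CPM in NTC libraries, 48.5, 42.2 and 37.0 under shMed4 #1, and 44.8, 39.5 and 40.1 under shMed4 #4. It fell by 0.25 (SE 0.07, edgeR adjusted p = 0.00291), with some overlap between shMed4 #1 and NTC. Its neighbours had medians of -0.13 and -0.23 (#1 and #4), against -0.23 and -0.27 for Fkbp2 itself. The part of this regional shift was not tested.

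Of the 9 ERAD genes tested, 3 were higher and 3 lower for the average (median 0.00). This lies near the 26.8% and 26.5% of all genes tested, and the 35.1% and 26.7% of those at 30 CPM or more. Os9 (ENSMUSG00000040462.13, chromosome 10, 127095650 to 127121131), a lectin that passes misfolded glycoproteins to the Sel1l and Syvn1 ligase complex, showed the largest fall of any member. It held 149, 150 and 147 CPM in NTC libraries, 123, 125 and 114 under shMed4 #1, and 77.3, 63.5 and 69.9 under shMed4 #4. The groups did not overlap, and the log2 change was -0.30 under shMed4 #1 (SE 0.06, edgeR adjusted p = 5.72e-05) and -1.08 under shMed4 #4 (SE 0.06, edgeR adjusted p = 2.02e-17). The 50 nearest tested genes had medians of -0.21 and -0.09. Herpud1 (chromosome 8, 94386438 to 94395377), a ubiquitin-like protein that organises the ligase complex, held 262, 255 and 268 CPM in NTC libraries, 204, 196 and 195 under shMed4 #1, and 192, 191 and 185 under shMed4 #4, an averaged log2 change of -0.43 (SE 0.04, edgeR adjusted p = 5.12e-11). Its 50 nearest tested genes had medians of -0.57 and -0.78, lower than the values of -0.40 and -0.47 for Herpud1 itself. The part of this regional shift in the fall of Herpud1 was not tested.

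Edem1 (chromosome 6, 108828641 to 108859356), a mannosidase-like protein that marks glycoproteins for disposal, held 161, 157 and 160 CPM in NTC libraries, 223, 218 and 228 under shMed4 #1, and 243, 255 and 245 under shMed4 #4. Its averaged log2 change was 0.56 (SE 0.04, edgeR adjusted p = 1.86e-13), with no overlap between the groups. Its relatives did not follow, since Edem2 fell by 0.19 (SE 0.06, edgeR adjusted p = 0.00678) and Edem3 had 0.09 (SE 0.06, edgeR adjusted p = 0.203). The neighbours of Edem2 had medians of -0.13 and -0.16 (#1 and #4), against -0.20 and -0.19 for Edem2 itself, and the part of this was not tested. Derl1 (chromosome 15, 57869502 to 57892448), a channel component, held 138, 128 and 148 CPM in NTC libraries, 168, 190 and 194 under shMed4 #1, and 208, 217 and 204 under shMed4 #4, a rise of 0.51. Its neighbours had medians of 0.21 and 0.32. Derl2 had a log2 change of 0.00 (SE 0.05, edgeR adjusted p = 0.967). Of the core ligase pair, the scaffold Sel1l rose from 223 ± 4.8 CPM in NTC to 261 ± 3.2 and 287 ± 15 (averaged log2 0.30, edgeR adjusted p = 5.78e-07), while the ubiquitin ligase Syvn1 stood at 92.9 ± 6.1, 92.1 ± 1.4 and 92.4 ± 4.2 CPM (SD, n = 3 each).

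**Figure D3:**
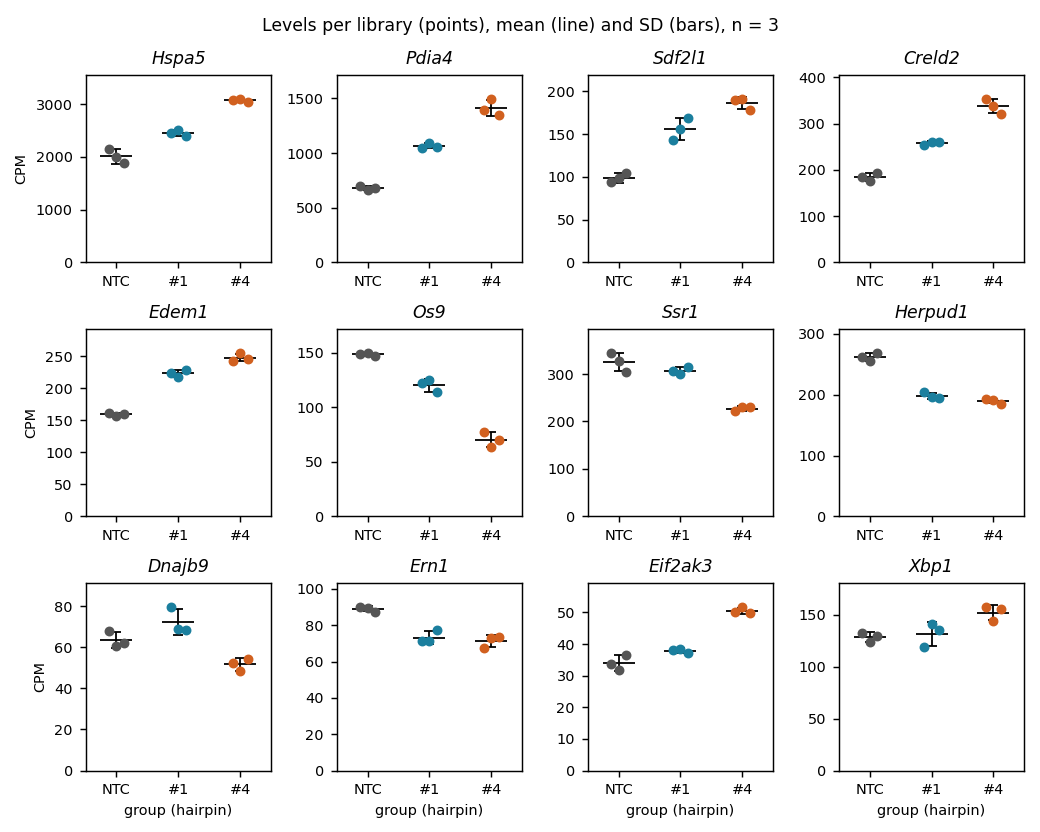
Points are CPM in each library (y axis from 0) by group (x axis: NTC, shMed4 #1, shMed4 #4), lines are means and bars SD over 3 libraries, for 12 members. Pdia4, Sdf2l1 and Creld2 step up and Os9 steps down over the groups in the order drawn, Dnajb9 is highest under shMed4 #1 and lowest under shMed4 #4, and Ssr1 drops mainly under shMed4 #4.

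Among the 3 genes of entry and exit, 2 rose and 1 fell for the average (26.8% and 26.5% of all genes tested). Sec61b (chromosome 4, 47474658 to 47483242), a small subunit of the translocon, held 81.2, 71.6 and 85.8 CPM in NTC libraries, 92.7, 92.9 and 89.8 under shMed4 #1, and 111, 96.4 and 98.2 under shMed4 #4, a rise of 0.28 (SE 0.06, edgeR adjusted p = 8.79e-05). The neighbours of Sec61b had medians of 0.19 and 0.17 (#1 and #4), against 0.21 and 0.35 for Sec61b itself. The part of this regional shift was not tested. Sec24d (chromosome 3, 123267455 to 123365641), a cargo-binding part of the COPII coat, held 104.5, 104.4 and 106 CPM in NTC libraries, 129, 128 and 124 under shMed4 #1, and 138, 140.4 and 139.8 under shMed4 #4, a rise of 0.34 (SE 0.05, edgeR adjusted p = 1.15e-07). Ssr1 (chromosome 13, 37966605 to 37994217), a subunit of the translocon-associated complex, held 344, 327 and 305 CPM in NTC libraries, 306, 299 and 315 under shMed4 #1, and 222, 230 and 230 under shMed4 #4. The shMed4 #1 libraries overlapped with NTC (-0.09, edgeR adjusted p = 0.183), while under shMed4 #4 it fell by 0.52 on the log2 scale (SE 0.05, edgeR adjusted p = 7.21e-11). Its averaged call did not pass when both hairpins were treated as 1 group (-0.28, edgeR adjusted p = 0.0571).

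Of the 5 sensors and factors, 3 rose and 2 fell for the average (26.8% and 26.5% of all genes tested). Under shMed4 #1 alone 0 rose and 1 fell (21.8% and 19.8% of all genes tested), while shMed4 #4 gave 3 rises and 2 falls (27.8% and 27.3%). Ern1 (chromosome 11, 106394650 to 106487852), the IRE1 kinase and nuclease, held 89.9, 89.8 and 87.5 CPM in NTC libraries, 71.2, 71.1 and 77.4 under shMed4 #1, and 67.7, 73.0 and 73.3 under shMed4 #4. All 6 knockdown libraries lay below NTC, and the averaged log2 change was -0.30 (SE 0.05, edgeR adjusted p = 8.11e-06). Eif2ak3 (chromosome 6, 70844515 to 70905245), the PERK kinase, held 33.6, 31.8 and 36.7 CPM in NTC libraries, 38.3, 38.6 and 37.0 under shMed4 #1, and 50.3, 51.7 and 49.8 under shMed4 #4. Its log2 change was 0.16 under shMed4 #1 (SE 0.08, edgeR adjusted p = 0.113) and 0.57 under shMed4 #4 (SE 0.08, edgeR adjusted p = 5.57e-08). An opposite-strand gene covers 8.05% of its exon sequence, with 540 reads counted for that gene against 2996 for Eif2ak3. Of the ATF6 paralogs, Atf6 (chromosome 1, 170704674 to 170867771) held 137, 134 and 136 CPM in NTC libraries, 148, 153 and 140.4 under shMed4 #1, and 159, 156 and 154 under shMed4 #4, and rose by 0.16 (edgeR adjusted p = 0.00393). Under shMed4 #1 alone its change of 0.12 was not called (edgeR adjusted p = 0.0787). Atf6b (chromosome 17, 34647146 to 34655074) had 928, 906 and 1051 reads in NTC libraries, 881, 976 and 998 under shMed4 #1, and 820, 780 and 843 under shMed4 #4. Scaled to library size, the shMed4 #4 libraries lay below all others, while those of shMed4 #1 and NTC overlapped. It stood at a mean of 120.5 ± 7.4, 114 ± 4.4 and 100.1 ± 3.2 CPM (SD, n = 3 each, same order) and fell by 0.17 (edgeR adjusted p = 0.00389). Xbp1 stood at 129 ± 4.4 CPM in NTC libraries, 132 ± 12 under shMed4 #1 and 152 ± 7.3 under shMed4 #4 (SD, n = 3 each). It rose under shMed4 #4 by 0.24 (SE 0.06, edgeR adjusted p = 0.000708), and its averaged rise of 0.14 (edgeR adjusted p = 0.0243) did not pass with upper-quartile scaling (0.10, edgeR adjusted p = 0.101).

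When the hairpins were compared directly, 18 members were higher and 4 lower under shMed4 #4 than under shMed4 #1 (14.2% and 13.9% of all genes tested, 20.7% and 14.3% of those at 30 CPM or more). Med4 was more strongly reduced under shMed4 #1. The clearest differences were lower Os9 (log2 difference -0.78, SE 0.06, edgeR adjusted p = 2.8e-12) and Ssr1 (-0.43, SE 0.05, edgeR adjusted p = 2.55e-08), and higher Pdia4 (0.41, SE 0.05, edgeR adjusted p = 2.27e-08) and Creld2 (0.39, SE 0.05, edgeR adjusted p = 1.65e-07). Dnajb9 followed with -0.48 (SE 0.07, edgeR adjusted p = 1.71e-06). The count of higher members was 12 without shMed4 #1 replicate 2, 12 without shMed4 #1 replicate 3 and at least 13 without any other single library.

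Further genes were taken from 9 lists, 8 of the secretory pathway and its stress response and 1 of cytosolic heat shock proteins. Like the members, these lists were chosen with earlier results of these data known. For the average, 76 of their 166 genes tested rose and 33 fell (median 0.11), against 26.8% higher and 26.5% lower among all genes tested and 35.1% and 26.7% among those at 30 CPM or more. The counts by list below stand against the same shares. Of 34 further ER chaperones and foldases, 18 rose and 6 fell (median 0.16), with the collagen chaperone Serpinh1 going from 2064 CPM in NTC to 3285 under shMed4 #1 and 4177 under shMed4 #4 (averaged log2 0.84). In the same list Fkbp11 changed by 0.96, Fkbp14 by 0.82 and the J-domain protein Dnajb14 by -0.73. The oligosaccharyltransferase, which attaches glycans to proteins entering the ER, gave 8 rises and 1 fall among 12 (median 0.22), with Rpn1 at 0.40, Tusc3 at 0.44, Stt3a at 0.32 and Ostc at 0.36. Of 22 genes of the translocon, signal peptidase and signal recognition, 11 rose and 4 fell (median 0.13), with Tram1 at 0.53, Sec61a1 at 0.38, Srpr at 0.32 and Sec61a2 at -0.41. The COPII coat, which buds vesicles off the ER, gave 7 rises and 2 falls among 14 (median 0.13), with Sec31a at 0.53, Sec13 at 0.52, Tfg at 0.51 and Sec23a at 0.42.

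Glycan trimming and further ERAD genes were mixed. Of 10 genes of glycan trimming and quality control, 4 rose and 5 fell (median -0.07), with the mannosidase Man1c1 at -0.84, the glucosidase Mogs at -0.33, and the cargo receptor pair Lman1 and Mcfd2 at 0.27 and 0.23. Of 26 further ERAD genes, 7 rose and 6 fell (median 0.04), close to the 26.8% and 26.5% of all genes tested. Fam8a1, a partner of Syvn1, changed by -0.50, Selenos by 0.35 and Stub1 by 0.32. The neighbours of Fam8a1 had medians of -0.26 and -0.44 (#1 and #4), against -0.41 and -0.59 for Fam8a1 itself, and the part of this was not tested.

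In the PERK and ATF4 branch, 7 of 16 genes rose and 2 fell (median 0.11, all genes tested 26.8% and 26.5%), with the asparagine synthetase Asns at 0.51, Nupr1 at 0.25, Vldlr at -0.57 and Nfe2l2 at -0.31. The neighbours of Asns had medians of 0.34 and 0.45 (#1 and #4), against 0.38 and 0.65 for Asns itself. The part of this regional shift in the rise of Asns was not tested. Of 12 genes in a mixed list of ATF6 proteases, CREB3 family members, the RNA ligase that joins Xbp1 and others such as the cargo lectin Lman2, 5 rose and 2 fell (median 0.12). Mbtps1, the site-1 protease that cuts ATF6, changed by 0.36, Creb3l2 by 0.45, Nucb2 by 0.48 and Lman2 by -0.36. The cytosolic heat shock proteins, which belong to a separate stress response, gave 9 rises and 5 falls among 20 (median 0.05). Hspa1b went from 49.0 CPM in NTC to 25.3 and 9.67 (averaged log2 -1.65), Hspb1 changed by 0.85, Dnajb4 by -0.69 and Dnaja2 by -0.59. The neighbours of Dnaja2 on chromosome 8 had medians of -0.40 and -0.44 (#1 and #4), against -0.56 and -0.62 for Dnaja2, which was not tested further. No test set these lists against each other.

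**Figure D4:**
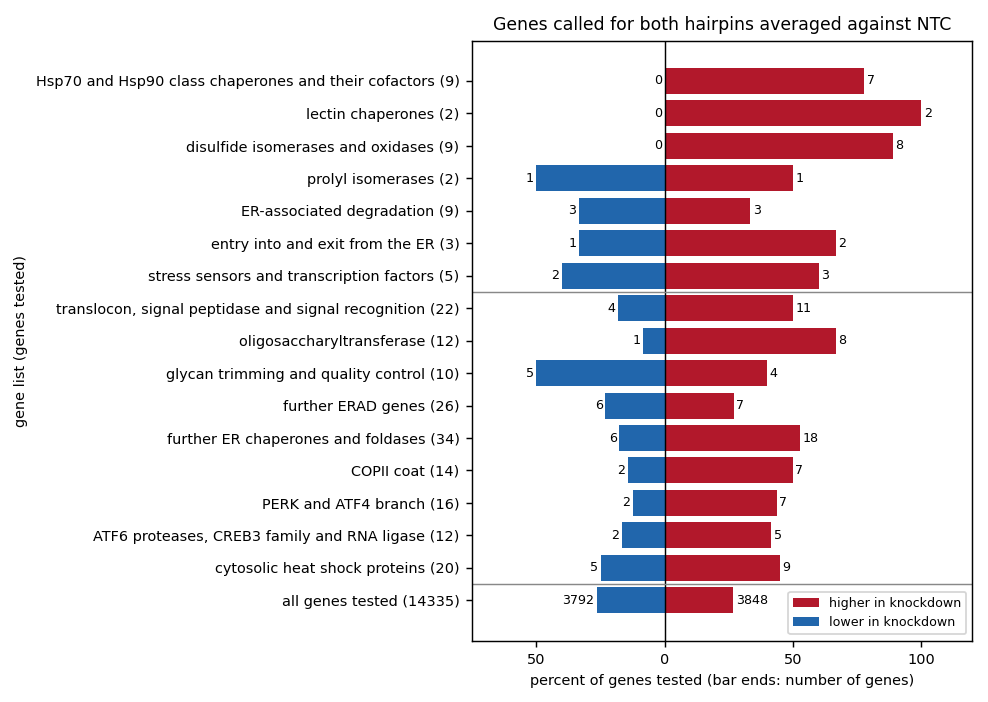
Bars give the percent of genes tested in each list (x axis, numbers of genes at the bar ends) that were higher (right) or lower (left) at an edgeR adjusted p under 0.05 for both hairpins averaged against NTC, for the 7 roles of the members, 9 further lists and all genes tested (y axis, genes tested in parentheses). Chaperones (7 and 0) and disulfide isomerases (8 and 0) are one-sided, while ERAD (3 and 3) and all 14335 genes (3848 and 3792) are even.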

How the data were processed

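RNA from 9 libraries was run on the BGISEQ-500 platform, according to the labels. The submitters' processing notes name STAR, HTSeq, mm10 and GRCm38, with no versions, strand setting or annotation release. The deposited values are raw read counts per gene, made by the authors. Records in no gene (49.5 to 51.6%) or at several places (10.5 to 11.6%) stayed out of library sizes and tests. Symbols came from a reference table (55154 of 55335 identifiers matched), coordinates and exon lengths from GENCODE on GRCm38, and promoters from RefSeq GRCm38.p6.

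The fit used edgeR 4.0.16 in R 4.3.3, with filterByExpr (minimum count 10, 14335 genes kept), TMM factors (0.969 to 1.03) and 1 quasi-likelihood model of the 3 groups. P-values were adjusted by Benjamini-Hochberg over all genes tested, with a threshold of 0.05. Each standard error is the size of the log2 fold change over the square root of F. Neighbour medians cover the 50 nearest tested genes and are printed for some genes only. Within groups, chi-square over degrees of freedom was 1.53 to 2.95, and every library was counted as separate. This measure cannot tell separate cultures or transductions from repeat libraries of 1 culture. The common biological coefficient of variation in the edgeR model was 0.043. The steps were tested on simulated counts. Alternatives were DESeq2 1.42.0, limma-voom (limma 3.58.1), other factors and filters, fits of only the libraries compared, the replicate block, and leaving out each library.

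The members and lists were chosen with earlier results of these data known. All members may be named. Values in every library are given for Med4, for up to 4 members a role with the smallest averaged adjusted p, for members that passed in opposite directions, and for the 5 smallest adjusted p between hairpins. Each further list gives up to 4 genes with the smallest averaged adjusted p and a mean of at least 1 CPM. A gene that this rule names in the further ERAD list is not reported here. Vim, Krt18, Sdc1, Pdgfra, Col1a1, Cdh5 and the markers at 0 were named after their values were seen.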

Additional observations from a re-analysis of the deposited data

Results flagged for a closer look

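The effects of the hairpins differed in 22 members by the direct edgeR comparison of shMed4 #4 with shMed4 #1 (adjusted p under 0.05), 3 libraries each. Log2 differences were negative for Os9 (-0.78), Dnajb9 (-0.48), Ssr1 (-0.43) and Atf6b (-0.19). Among chaperones and cofactors they were positive for Hspa5 (0.32), Sdf2l1 (0.26), Hyou1 (0.26), Hsp90b1 (0.25), Manf (0.16) and Dnajb11 (0.13). Among isomerases they were positive for Pdia4 (0.41), Creld2 (0.39), Txndc11 (0.29), Ppib (0.16), Pdia3 (0.15) and Txndc5 (0.13). In ERAD and transport they were positive for Derl1 (0.19), Edem1 (0.15), Sel1l (0.14) and Sec24d (0.14). Of the sensors and factors, Eif2ak3 (0.41) and Xbp1 (0.21) were higher with shMed4 #4. Of these 22 calls, 11 were lost in at least 1 alternative, all 11 of them when some single library was left out.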

How the results depend on the processing

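Counts of called members stayed within 1.5 times of the values given under DESeq2, limma-voom, DESeq2 or upper-quartile factors, both other filters, fits of only the libraries compared and the replicate block, for all 4 comparisons, while single-library exceptions follow. With upper-quartile factors, which moved the median of all genes by under 0.1, 24 members rose and 8 fell for the average. Leaving out each library gave 3 to 6 lower members under shMed4 #1, with 3 both without NTC replicate 1 and without shMed4 #1 replicate 3. No called member reversed. At least 1 setting lost 4 of 33 calls for the average, 7 of 27 for shMed4 #1, 2 of 34 for shMed4 #4 and 11 of 22 between hairpins; where no other cause is given, the cause was not tested.

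Same-numbered libraries did not deviate together (correlations -0.0586 to 0.0352, 0 of 9 over 0.1), so the numbers are not taken to pair them. With the replicate block 26 members rose and 7 fell for the average, 22 and 6 under shMed4 #1, 26 and 8 under shMed4 #4, and 16 and 4 between hairpins.

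The values that changed sign were all uncalled and near 0. Without a low-count filter Syvn1 gave 0.0021 for the average and 0.0092 under shMed4 #4, and Dnajc10 0.0001 between hairpins. With upper-quartile factors Derl2 gave -0.0348 for the average, Edem3 -0.0053 under shMed4 #1 and Syvn1 -0.0106 between hairpins, where a fit of only the libraries compared gave Syvn1 -0.0004. Leaving out each library in turn, the averaged values ranged from -0.0638 to 0.0229 for Syvn1 and -0.0127 to 0.0282 for Derl2. Under shMed4 #1 they ranged from -0.0664 to 0.0203 for Syvn1, -0.0426 to 0.0718 for Edem3 and -0.0148 to 0.1048 for Xbp1. Under shMed4 #4 they ranged from -0.0611 to 0.0354 for Syvn1 and -0.0709 to 0.0029 for Derl2. Between hairpins they ranged from -0.0496 to 0.0336 for Dnajc3, -0.0171 to 0.0075 for Dnajc10, -0.1272 to 0.0716 for Fkbp2, -0.0092 to 0.0466 for Syvn1, -0.0407 to 0.0925 for Edem2 and -0.0588 to 0.0048 for Ern1. Depth left Derl3, with 45 reads, untested.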
